A study of Mus musculus with 1 sample.

Results

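Gata4, Gata6, Wt1, Lhx9, Emx2, Zfpm2, Cbx2, Tcf21 and Dmrt1 are regulators of the gonadal ridge, the strip of coelomic epithelium and underlying mesenchyme from which both the testis and the ovary form. Their expression was followed here in the fetal mouse testis, after sex determination, cell class by cell class. The 9 genes were chosen by symbol from the 22631 features of the control library by a rule that uses no measured value, though earlier results of these data were known when the genes were picked. All 9 have a row in the count table and were detected.

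The library was made from 12 whole control testes, labelled as embryonic day 14.5 and pooled into 1 cell suspension. The label gives their genotype as WT. According to the methods of the study, controls carried floxed alleles of Nr5a1 without the Cre transgene and were on a mixed C57BL/6 and 129/SvPass background, and the sampling is described there with an additional embryonic day. No agent was given, and the library of the mutant testes, in which Nr5a1 was deleted in Sertoli cells, was not used here. With 1 library there is no replicate, so no test was made and each interval covers counting error only.

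GATA4 and WT1 are DNA-binding proteins that the early gonad needs in order to form and, in XY embryos, to turn on the male program. GATA6 is a close relative of GATA4. LHX9 and EMX2 are homeodomain proteins without which the ridge does not grow out, and CBX2 belongs to a Polycomb complex that holds the female program in check. After sex determination the supporting cells of the testis become Sertoli cells (SCs), which enclose the germ cells (GCs) in cords, and the cells outside the cords become Leydig cells (LCs), peritubular myoid (PTM) cells and interstitial progenitors.

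Among 5421 barcodes, 3821 cells passed the filters, with a median of 12067 unique molecular identifiers (UMIs, each standing for 1 captured RNA molecule) per cell. Clusters were named from marker genes, none of which was one of the 9 genes, and the 9 genes were left out of the genes that the cells were clustered on. The doublet filter, which removes barcodes likely to hold more than 1 cell, did not set the 9 genes aside. The cells comprised 924 SC-like, 247 GC-like, 310 LC-like, 1356 interstitial-like, 521 PTM-like, 148 coelomic epithelium-like and 103 perivascular-like cells. An unnamed cluster of 88 cells had Kcnk2 and Emcn among its leading genes. By its markers it was nearest to interstitial cells. It was left unnamed because its leading genes included Emcn, an endothelial marker, and no interstitial marker. Small classes held 38 erythroid-like, 36 endothelial-like, 35 immune-like and 15 rete testis-like cells. The median depth of these classes ran from 7996 UMIs in the unnamed cluster to 36251 UMIs in GC-like cells. For this reason shares of cells with a UMI are given after thinning to 5000 UMIs, without the cells below that depth. This left out 69 SC-like and 65 interstitial-like cells, among other cells. Of the 62 cells of SC-like cluster 11, which had a median of 3148 UMIs, only 11 were kept. Levels are UMIs summed over the cells of a class, in counts-per-million (CPM). A level was compared between classes for 1 gene at a time, and where counts of a pair of genes are given as a share, the share is compared between clusters and does not rank the genes.

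In GRCm38, Gata4 lies on chromosome 14 (63198922 to 63271692, minus strand), Wt1 on chromosome 2 (105126529 to 105173616, plus strand) and Lhx9 on chromosome 1 (138825186 to 138848577, minus strand). Zfpm2 lies on chromosome 15 (40655035 to 41104592, plus strand), Cbx2 on chromosome 11 (119022962 to 119031270, plus strand) and Tcf21 on chromosome 10 (22817281 to 22820174, minus strand). Chromosome 19 holds both Dmrt1 (25505618 to 25604329, plus strand) and Emx2 (59458372 to 59465357, plus strand). Antisense genes overlap Emx2 (Emx2os) and Tcf21 (Gm10824) in the annotation and were not analysed here.

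The start regions of Lhx9 and Tcf21 are shown because these genes followed each other most closely of all pairs of the 9. RefSeq windows of 300 bases were at hand for 3 of the 9 genes, and only the bases outside annotated exons are printed, 5′ to 3′ on the gene's own strand in GRCm38.p6. For Lhx9 these are 237 bases at chr1:138842458-138842694 on the minus strand, inside the gene's span but outside its exons. For Tcf21 they are 219 bases at chr10:22820175-22820393 on the minus strand, before the gene. Capitals mark matches, on either strand, to any of 5 motifs. GATA proteins bind sites such as AGATAA, and bHLH proteins such as TCF21 bind the E-box, searched as CANNTG. Homeodomain proteins bind sites such as TAATTA. The other motifs were the basal promoter elements known as the TATA box, spelled TATAAA, and the GC box, spelled GGGCGG, and no letters of different motifs overlap in the stretches printed.
Lhx9: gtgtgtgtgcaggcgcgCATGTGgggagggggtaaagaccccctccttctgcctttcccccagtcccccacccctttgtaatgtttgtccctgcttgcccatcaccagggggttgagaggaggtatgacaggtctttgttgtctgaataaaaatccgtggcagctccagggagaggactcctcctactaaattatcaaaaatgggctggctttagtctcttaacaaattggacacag
Tcf21: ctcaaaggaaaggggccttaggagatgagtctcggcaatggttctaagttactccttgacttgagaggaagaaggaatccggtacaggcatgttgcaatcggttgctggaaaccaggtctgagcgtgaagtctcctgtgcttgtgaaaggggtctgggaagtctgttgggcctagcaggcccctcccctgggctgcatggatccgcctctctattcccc
The Lhx9 stretch held 1 E-box, a motif present in 72.3% of the 32851 windows of the table, and the Tcf21 stretch held none of the 5 motifs. The whole Tcf21 window held 1 AGATAA, as did 11.2% of all windows. The Emx2 window (59458440 to 59458739 on chromosome 19) held 1 TAATTA, found in 5.29% of all windows, and 26 CpG dinucleotides, more than in 83.1% of them. It lies within the annotated first exon and is not printed. A match of this kind is a description of the letters in a window.

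Of the 9 genes, 7 were somatic, 1 had a similar pooled level in soma and germ line, and 1 belonged to SC-like and GC-like cells. Somatic here means SC-, LC-, interstitial-, PTM- and coelomic epithelium-like cells together. A gene was called different where its level was at least 2-fold apart on CPM + 5 and it had at least 50 UMIs over the classes compared. Gata4, Gata6, Wt1, Lhx9, Emx2, Zfpm2 and Tcf21 were called higher in somatic cells, against 23.0% of the 12889 genes compared. The median log2 ratio was 3.68 over the 9 genes and 0.26 over all genes. Dmrt1 was called lower in the pooled somatic cells, against 11.2% of all genes, and Cbx2 was called in neither direction. In SC-like cells alone Dmrt1 was at 36.2 CPM, against 29.7 CPM in GC-like cells.

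The GC-like level of the 7 somatic genes was small. Tcf21 in GC-like cells stood at 1.45% of its somatic level (95% interval 1.08 to 1.90), Gata6 at 1.68% (0.89 to 2.88) and Emx2 at 1.85% (0.68 to 4.04). Zfpm2 stood at 2.03% (0.92 to 3.85), Lhx9 at 2.55% (1.81 to 3.51), Gata4 at 2.64% (1.69 to 3.93) and Wt1 at 4.49% (3.38 to 5.85). The markers of somatic classes were measured in GC-like cells in the same way. The summed level of the 11 SC markers in GC-like cells was 2.24% of the somatic level, with single genes between 1.32% and 4.01%, that of the LC markers was 2.60% with single genes up to 12.1%, and that of the PTM markers was 4.30% with single genes up to 31.8%. That of the interstitial markers was 6.54% with single genes up to 52.4%, and that of the coelomic epithelium markers was 30.6%, with a single gene at 270%. A single gene made up most of the GC-like sum of the last 3 lists, namely Pdlim3 with 27.9 of 35.1 CPM, Ptch1 with 63.7 of 90.4 CPM and Bnc1 with 15.6 of 21.6 CPM. Of the 7 somatic genes, 6 lay within the range of single SC markers and Wt1 lay above it. The part of RNA from other cells in these counts was not tested. The spread over cells differed between the genes. Of 55 Wt1 UMIs in GC-like cells 9 came from 1 cell, of 52 Tcf21 UMIs 10 came from 1 cell, and of 38 Lhx9 UMIs 8 came from 1 cell. The 24 Gata4 UMIs came from 22 cells, the 13 Gata6 UMIs from 12 cells, the 6 Emx2 UMIs from 6 cells and the 9 Zfpm2 UMIs from 6 cells. Without removal of doublets (barcodes that hold more than 1 cell), the GC-like level of Wt1 was 13.2 CPM in place of 6.25 CPM, and that of Tcf21 was 10.6 CPM in place of 5.91 CPM. Whether mixed barcodes remained among the cells kept was not tested.

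**Figure D1:**
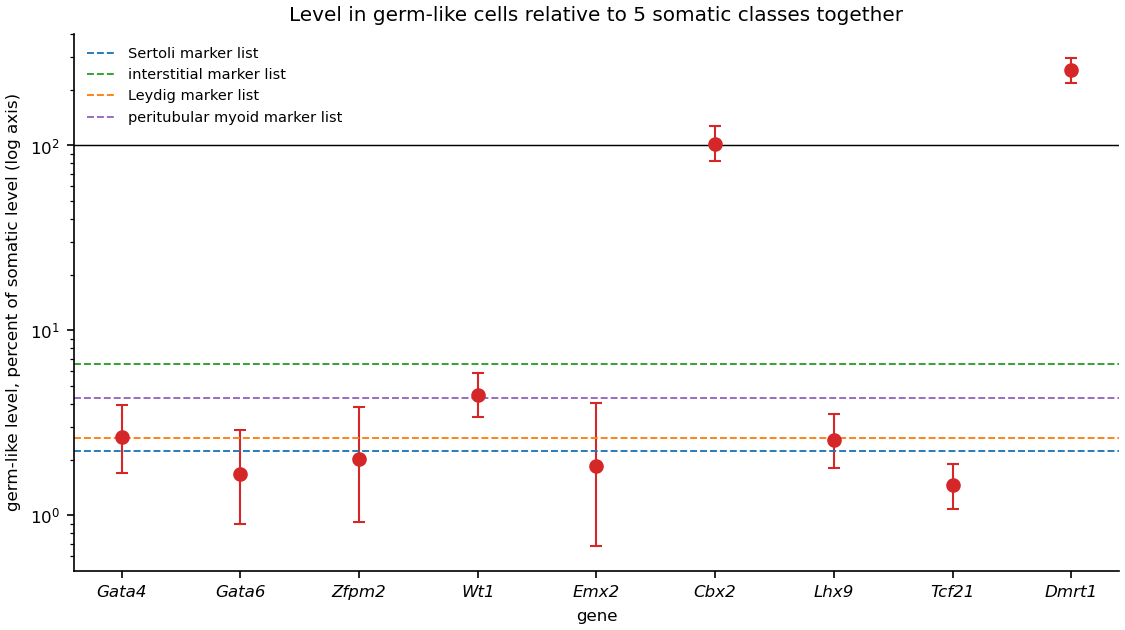
Level of each of the 9 genes in GC-like cells as a percent of the level in 5 somatic classes together (log axis), with points for the ratio of summed counts and bars for exact 95% intervals of counting error; dashed lines give the same percent for summed marker lists of 4 somatic classes, and the list of the coelomic epithelium, at 30.6%, is not drawn. The 7 somatic genes lie between 1.45% and 4.49%, whereas Cbx2 lies at 102.5% and Dmrt1 at 255%.

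Gata4, Gata6 and their cofactor were described first. Gata4 encodes a zinc finger protein required for the first thickening of the gonad and for expression of Sry. It was found in each of the 5 somatic classes and was highest in SC-like cells, at 168 CPM (161 to 175). Coelomic epithelium-like cells had 81.0 CPM (70.7 to 92.5), interstitial-like cells 75.7 CPM (71.1 to 80.5), LC-like cells 73.9 CPM (67.0 to 81.3), PTM-like cells 66.9 CPM (60.9 to 73.3) and perivascular-like cells 62.9 CPM (49.7 to 78.4). These 5 classes had overlapping neighbours in the order of levels, and only SC-like cells stood apart above them. The unnamed cluster had 10.8 CPM (4.95 to 20.5) and GC-like cells 2.73 CPM (1.75 to 4.06). At 5000 UMIs, 56.7% of SC-like cells (53.3 to 60.1) had a Gata4 UMI, against 31.9% of interstitial-like cells (29.4 to 34.5) and 1.22% of GC-like cells (0.25 to 3.52). In the 36 endothelial-like cells the count was 0, which allows up to 5.30 CPM. Of the 12 groups of cells, only these had no Gata4 UMI.

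Gata6, a close relative of Gata4 with overlapping roles in steroid-producing and supporting cells, was distributed differently. Its level was highest in coelomic epithelium-like cells, at 241 CPM (223 to 260). LC-like cells had 122 CPM (113 to 132), PTM-like cells 107 CPM (98.9 to 115) and SC-like cells 95.3 CPM (90.1 to 101). The unnamed cluster had 54.1 CPM (39.5 to 72.4), perivascular-like cells 38.7 CPM (28.5 to 51.3), interstitial-like cells 26.0 CPM (23.4 to 28.9) and GC-like cells 1.477 CPM (0.79 to 2.53). Intervals overlapped between LC-like and PTM-like cells, between PTM-like and SC-like cells, and between the unnamed cluster and perivascular-like cells. Those of perivascular-like and interstitial-like cells overlapped narrowly, and their ratio was 1.49 (1.08 to 2.01). At equal depth 62.4% of coelomic epithelium-like cells (53.9 to 70.4) and 11.5% of interstitial-like cells (9.85 to 13.4) had a Gata6 UMI.

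The balance between the GATA factors moved from class to class. Gata4 made up 74.4% of the Gata4 and Gata6 UMIs in interstitial-like cells (72.02 to 76.7) and 63.8% in SC-like cells (62.1 to 65.4). It made up 38.6% in PTM-like cells (35.8 to 41.4), 25.2% in coelomic epithelium-like cells (22.3 to 28.2) and 16.7% in the unnamed cluster (7.92 to 29.3). Of the 3 classes made of several clusters, the LC-like class had the widest split. In cluster 6 (183 cells, led by Nppc and Vsnl1) Gata4 made up 66.8% (61.9 to 71.4), and in cluster 8 (127 cells, led by Clps and Cyp11a1) it made up 21.4% (18.5 to 24.6). Gata4 was at 106 CPM (93.5 to 119) in cluster 6 and 48.4 CPM (41.0 to 56.7) in cluster 8, a ratio of 0.46 (0.37 to 0.56). Gata6 went from 52.7 CPM (44.1 to 62.5) to 177 CPM (163 to 193), a ratio of 3.37 (2.78 to 4.10). The Gata4-poor cluster 8 was also the richer in steroidogenic genes, with a summed LC marker level of 39006 CPM against 10312 CPM in cluster 6. Cyp11a1, the enzyme that cuts the cholesterol side chain, was at 10939 CPM in cluster 8 and 2531 CPM in cluster 6, and Insl3, a hormone of LCs, at 671 and 279 CPM. Markers of interstitial cells moved the other way, with a summed level of 682 CPM in cluster 6 and 129 CPM in cluster 8, and their part in the split was not tested.

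The same clusters were compared cell by cell at 5000 UMIs. In cluster 6, 35.7% of 182 cells (28.8 to 43.1) had Gata4 UMIs without Gata6 UMIs, 12.1% (7.73 to 17.7) had Gata6 without Gata4 and 6.59% (3.45 to 11.2) had both. In cluster 8, 12.0% of 125 cells (6.87 to 19.0) had Gata4 alone, 44.8% (35.9 to 54.0) had Gata6 alone and 10.4% (5.66 to 17.1) had both. Over the whole LC-like class, Gata6 was detected in 23.8% of cells with a Gata4 UMI (16.0 to 33.1) and in 38.6% of cells without (31.9 to 45.7). In SC-like cells the corresponding shares were 35.1% (30.8 to 39.5) and 39.2% (34.2 to 44.4). In both classes the intervals of these shares overlapped, and 19.9% of SC-like cells held both RNAs. The LC-like shares pool clusters 6 and 8, which differ in both RNAs, and were not computed within each cluster.

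**Figure D2:**
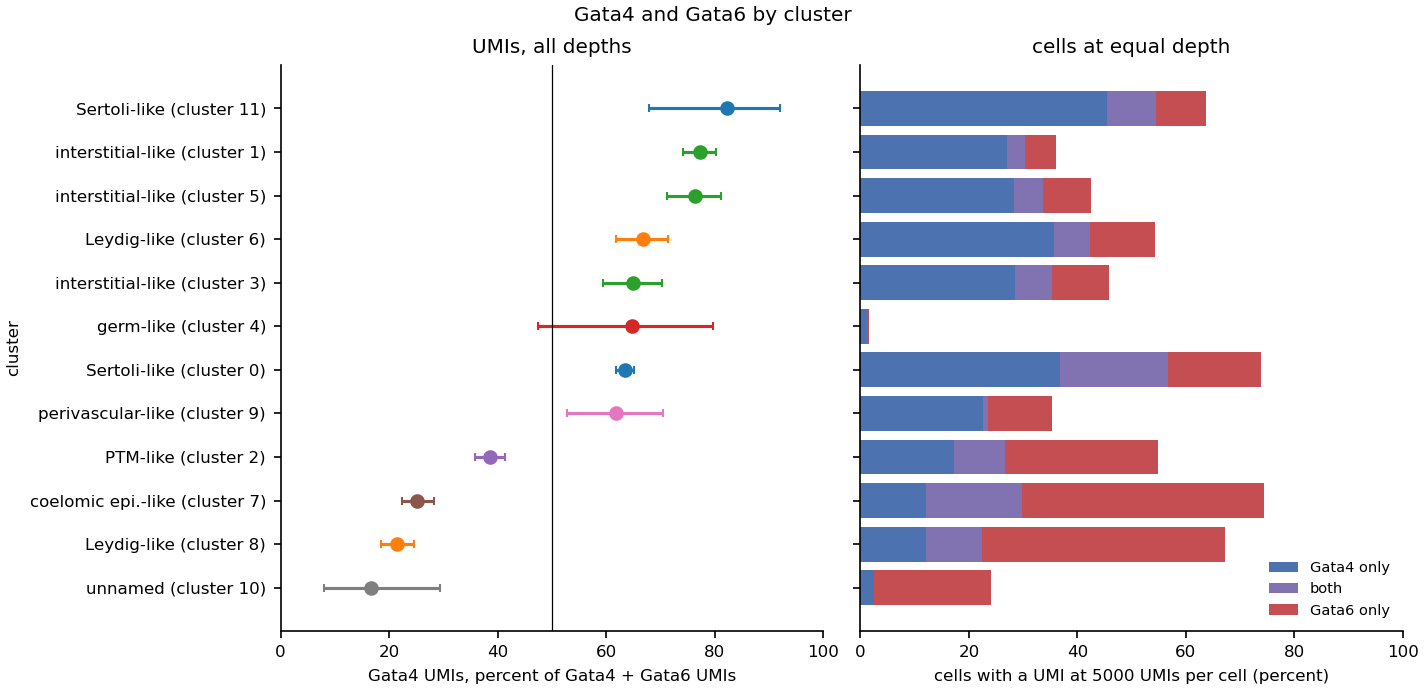
Left, Gata4 UMIs as a percent of Gata4 and Gata6 UMIs in each cluster of the 8 larger classes, with exact 95% binomial intervals; right, the percent of cells with only Gata4, both or only Gata6 UMIs after thinning to 5000 UMIs per cell. The LC-like clusters 6 and 8 lie at 66.8% and 21.4%, and cluster 8 lies beside the coelomic epithelium-like cluster at 25.2%.

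Zfpm2 encodes FOG2, the zinc finger cofactor that GATA4 needs for testis formation. It was highest in PTM-like cells, at 85.2 CPM (78.4 to 92.4), followed by coelomic epithelium-like cells at 71.4 CPM (61.7 to 82.2). SC-like cells had 54.1 CPM (50.2 to 58.3), the unnamed cluster 54.1 CPM (39.5 to 72.4), perivascular-like cells 48.3 CPM (36.9 to 62.2) and interstitial-like cells 42.1 CPM (38.7 to 45.7). LC-like cells had 10.4 CPM (7.90 to 13.4) and GC-like cells 1.02 CPM (0.47 to 1.94). LC-like cells thus held Gata4 with little Zfpm2, the latter at a ratio of 0.25 (0.19 to 0.32) to interstitial-like cells. Their Gata4 level differed between the clusters, at 106 CPM in cluster 6 and 48.4 CPM in cluster 8, against 75.7 CPM in interstitial-like cells. Low Zfpm2 was seen in both LC-like clusters, with 11.5 CPM (7.70 to 16.5) in cluster 6 and 9.49 CPM (6.40 to 13.5) in cluster 8. In SC-like cells at 5000 UMIs, Zfpm2 was detected in 22.1% of cells with a Gata4 UMI (18.5 to 26.0) and in 20.5% of cells without (16.5 to 25.02).

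From the list of other GATA and FOG genes, 1 of 5 reached 50 CPM in a class of at least 50 cells. This was Zfpm1, which encodes FOG1, at 69.1 CPM (64.7 to 73.7) in SC-like cells and between 4.75 and 11.5 CPM in the other 7 classes. Gata1, Gata2, Gata3 and Gata5 stayed at or below 10.4 CPM, the highest of these levels being that of Gata5 in coelomic epithelium-like cells.

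Wt1, which encodes a zinc finger protein needed for survival of the ridge and later for the identity of SCs, was high in coelomic epithelium-like cells, at 350 CPM (328 to 373), and in SC-like cells, at 270 CPM (261 to 279). PTM-like cells had 122 CPM (114 to 131), the unnamed cluster 107 CPM (85.9 to 132), perivascular-like cells 56.4 CPM (44.0 to 71.3) and interstitial-like cells 34.2 CPM (31.2 to 37.5). GC-like cells had 6.25 CPM (4.71 to 8.13) and LC-like cells 4.93 CPM (3.27 to 7.12). Without doublet removal the LC-like level of Wt1 was 8.36 CPM. The intervals of LC-like and GC-like cells overlapped. At 5000 UMIs 81.6% of coelomic epithelium-like cells (74.2 to 87.6), 70.1% of SC-like cells (66.9 to 73.1) and 2.61% of LC-like cells (1.13 to 5.07) had a Wt1 UMI. Endothelial-like cells had 49.5 CPM (32.9 to 71.5) from 28 UMIs in 11 cells.

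Within the interstitial-like class Wt1 was uneven. It was at 59.7 CPM (50.6 to 69.9) in cluster 3 (led by Ntng1 and Sostdc1), 37.0 CPM (30.2 to 44.9) in cluster 5 (led by histone genes of dividing cells) and 25.2 CPM (21.9 to 28.9) in cluster 1 (led by Colec11 and Inhba). Cluster 3 exceeded cluster 1 by a ratio of 2.37 (1.91 to 2.94) for Wt1, 3.16 (2.47 to 4.04) for Emx2, 1.95 (1.51 to 2.49) for Gata6 and 1.65 (1.53 to 1.78) for Lhx9. The ratio was 1.60 (1.31 to 1.95) for Zfpm2 and 1.575 (1.49 to 1.66) for Tcf21. For Gata4 it was 1.06 (0.90 to 1.25) and for Cbx2 1.14 (0.70 to 1.81). The summed interstitial markers were at 3281 CPM in cluster 3 and 2399 CPM in cluster 1, and their part in these ratios was not tested. Of the proteins that bind WT1 or act with it, the genes of 3 of 4 on the list reached 50 CPM in some class. Basp1, a corepressor of WT1, was highest in SC-like cells at 990 CPM, Cited2, a coactivator in the early gonad and adrenal, in LC-like cells at 590 CPM, and Wtap in coelomic epithelium-like cells at 75.8 CPM.

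Lhx9 encodes a LIM homeodomain protein of the ridge epithelium. Its level was 433 CPM (408 to 458) in coelomic epithelium-like, 334 CPM (303 to 368) in perivascular-like, 302 CPM (289 to 315) in PTM-like and 269 CPM (260 to 278) in interstitial-like cells. It was 81.8 CPM (63.5 to 104) in the unnamed cluster and 30.6 CPM (26.2 to 35.5) in LC-like cells. GC-like cells had 4.32 CPM (3.06 to 5.93) and SC-like cells 3.35 CPM (2.43 to 4.49). The intervals of SC-like and GC-like cells overlapped. At equal depth 78.7% of coelomic epithelium-like cells (71.0 to 85.2), 68.1% of interstitial-like cells (65.5 to 70.6) and 1.05% of SC-like cells (0.48 to 1.99) had a Lhx9 UMI. Without doublet removal the SC-like level was 11.2 CPM. Coelomic epithelium-like cells also had 1662 CPM of the summed interstitial markers, against 2576 CPM in interstitial-like cells. The part of these markers' RNA in their Lhx9 level was not tested.

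Emx2, a homeobox gene required for growth of the urogenital ridge, was also highest in the coelomic epithelium-like class. Coelomic epithelium-like cells had 156 CPM (141 to 171), PTM-like cells 87.1 CPM (80.2 to 94.4), perivascular-like cells 51.6 CPM (39.7 to 65.9) and interstitial-like cells 26.7 CPM (24.0 to 29.6). The unnamed cluster had 15.6 CPM (8.32 to 26.7) and SC-like cells 11.5 CPM (9.72 to 13.5). LC-like cells, at 2.46 CPM (1.35 to 4.13), and GC-like cells, at 0.68 CPM (0.25 to 1.484), were lowest, with intervals that overlapped narrowly. SC-like cells had a low level, with 5.50% of cells (4.07 to 7.24) carrying an Emx2 UMI at 5000 UMIs. Among GC-like cells it was 0 of 246 (exact upper bound 1.49%).

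Of 6 homeobox relatives and LIM cofactors on the list, 2 reached 50 CPM in some class. Lhx2, Lhx8 and Emx1 stayed at or below 3.18 CPM in every class, and Lhx1 was found in GC-like cells, at 34.5 CPM, with at most 0.23 CPM in the other classes. The LIM cofactor gene Ldb2 was at 113 CPM in the unnamed cluster, 104 CPM in interstitial-like and 4.33 CPM in SC-like cells. Ldb1 was more even, between 27.1 CPM in LC-like and 66.0 CPM in GC-like cells.

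Tcf21 encodes a bHLH protein of mesenchymal progenitors in the gonad, kidney and heart. It was highest in PTM-like cells, at 975 CPM (952 to 998), then in coelomic epithelium-like cells, at 797 CPM (763 to 831), and interstitial-like cells, at 590 CPM (577 to 603). The unnamed cluster had 512 CPM (465 to 563) and perivascular-like cells 403 CPM (368 to 440). LC-like cells had 35.9 CPM (31.1 to 41.2), SC-like cells 6.54 CPM (5.23 to 8.07) and GC-like cells 5.91 CPM (4.41 to 7.75). The difference between SC-like cells and PTM-like or interstitial-like cells was sharp. At 5000 UMIs 94.5% of PTM-like cells (92.2 to 96.3), 86.1% of interstitial-like cells (84.1 to 87.9) and 2.57% of SC-like cells (1.62 to 3.87) had a Tcf21 UMI. Among SC-like cells, 11 of 86 Tcf21 UMIs came from 1 cell, and without doublet removal the SC-like level was 30.4 CPM. Erythroid-like cells had 141 CPM (113 to 174) from 13 of 38 cells, with up to 14 UMIs in 1 cell. Their summed interstitial marker level was 451 CPM, against 2576 CPM in interstitial-like cells, and its part in the Tcf21 level was not tested. In coelomic epithelium-like cells the summed interstitial marker level was 1662 CPM, and its part in their Tcf21 level was likewise not tested.

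Lhx9 and Tcf21 were lower in LC-like than in interstitial-like cells, and lowest in the LC-like cells with the most steroidogenic RNA. Lhx9 was at 53.1 CPM (44.5 to 62.9) in cluster 6 and 12.7 CPM (9.04 to 17.2) in cluster 8, and Tcf21 at 56.7 CPM (47.8 to 66.8) and 19.3 CPM (14.8 to 24.8). In cluster 8 the most in 1 cell was 13 of 40 UMIs for Lhx9 and 16 of 61 for Tcf21. In cluster 6 it was 8 of 134 UMIs for Lhx9 and 9 of 143 for Tcf21. Cluster 8 to cluster 6 ratios were 0.24 (0.16 to 0.34) for Lhx9 and 0.34 (0.25 to 0.46) for Tcf21. The summed interstitial markers went from 682 CPM in cluster 6 to 129 CPM in cluster 8, and their part in these ratios was not tested. In LC-like cells at equal depth Tcf21 was detected in 31.4% of the 35 cells with a Lhx9 UMI (16.9 to 49.3) and in 10.7% of cells without (7.26 to 14.95). These shares pool clusters 6 and 8 as well, and were not computed within each cluster. The LC-like levels depended on the clustering, since at a finer resolution (1.2), which left 229 LC-like cells, they were 15.3 CPM for Lhx9 and 17.1 CPM for Tcf21. With the outlier limit at 5 median absolute deviations the LC-like level of Tcf21 was 23.7 CPM in place of 35.9 CPM.

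Of the bHLH relatives and E proteins, 4 of 8 reached 50 CPM in some class. Tcf3, Tcf4 and Tcf12 encode E proteins, the partners with which TCF21 binds DNA. Tcf4 was at 298 CPM in coelomic epithelium-like, 237 CPM in interstitial-like and 44.1 CPM in SC-like cells. Tcf3 lay between 70.4 and 136 CPM and Tcf12 between 37.4 and 134 CPM over the 8 classes. Hand2 was highest in coelomic epithelium-like cells, at 82.5 CPM, followed by PTM-like cells at 27.8 CPM, and was at most 4.03 CPM elsewhere. Hand1 had no UMI in any of these classes.

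Cbx2 encodes the chromodomain subunit by which a Polycomb complex recognises methylated histone H3, and its loss lets XY gonads develop as ovaries. It was sparse, with at most 4 UMIs in a cell, and the flattest of the 9 genes between soma and germ line. Coelomic epithelium-like cells had 22.9 CPM (17.6 to 29.4) and stood apart. SC-like cells had 13.6 CPM (11.7 to 15.8), PTM-like cells 13.0 CPM (10.4 to 16.0), GC-like cells 11.6 CPM (9.45 to 14.1) and interstitial-like cells 9.15 CPM (7.60 to 10.9), and the intervals of neighbours in this order overlapped. The unnamed cluster had 8.42 CPM (3.38 to 17.3), perivascular-like cells 8.06 CPM (3.86 to 14.8) and LC-like cells 3.52 CPM (2.15 to 5.43). The GC-like to somatic ratio was 1.03 (0.82 to 1.27). In GC-like cells Cbx2 was found in 82 of 247 cells, with at most 3 UMIs in each. At 5000 UMIs the share was 2.44% of GC-like (0.90 to 5.23) and 6.32% of SC-like cells (4.78 to 8.16). Over the 5 somatic classes together it was 5.03% (4.28 to 5.85).

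Other Polycomb genes did not share one distribution. Of the 11 on the list, 4 reached 50 CPM in some class. Phc1 was highest in GC-like cells (87.3 CPM, against at most 33.7 CPM elsewhere), Rnf2, the catalytic subunit, in LC-like cells (132 CPM, against at most 51.6 CPM elsewhere), Phc2 in perivascular-like cells (79.0 CPM) and Cbx6 in coelomic epithelium-like cells (56.6 CPM). Cbx7, a paralog of Cbx2, was at 17.6 CPM in GC-like cells and at most 2.81 CPM in the other classes.

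Dmrt1, which encodes the DM domain protein that keeps SCs male after birth and acts in GCs as well, was found mainly in SC-like and GC-like cells. SC-like cells had 36.2 CPM (33.0 to 39.6) and GC-like cells 29.7 CPM (26.2 to 33.5). The GC-like to SC-like ratio was 0.82 (0.70 to 0.96), and the intervals of the levels overlapped. Rete testis-like cells had 20.8 CPM (5.66 to 53.2), from 4 UMIs in 4 of 15 cells. Every other class of at least 50 cells was at or below 0.58 CPM, with from 1 to 5 UMIs in each of the LC-, interstitial-, PTM- and coelomic epithelium-like classes. In perivascular-like cells and in the unnamed cluster the count was 0, which allows up to 2.42 and 3.61 CPM. At 5000 UMIs 17.5% of SC-like cells (15.1 to 20.3) and 12.6% of GC-like cells (8.73 to 17.4) had a Dmrt1 UMI, against 0.08% of interstitial-like cells (0.002 to 0.43). Dmrt1 in GC-like cells was 255% of its level in the pooled somatic classes (218 to 297). The summed level of the 11 SC markers in GC-like cells was 2.24% of the somatic level. The part of SC RNA in the GC-like Dmrt1 level was not tested. On CPM + 5 the GC-like to somatic log2 ratio of Dmrt1 was 1.06, close to the 2-fold limit. At resolution 1.2 no gene of the 9 was called lower in somatic cells. None of the 7 other DM domain genes reached 50 CPM, and the highest was Dmrta1, at 6.54 CPM in SC-like cells.

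**Figure D3:**
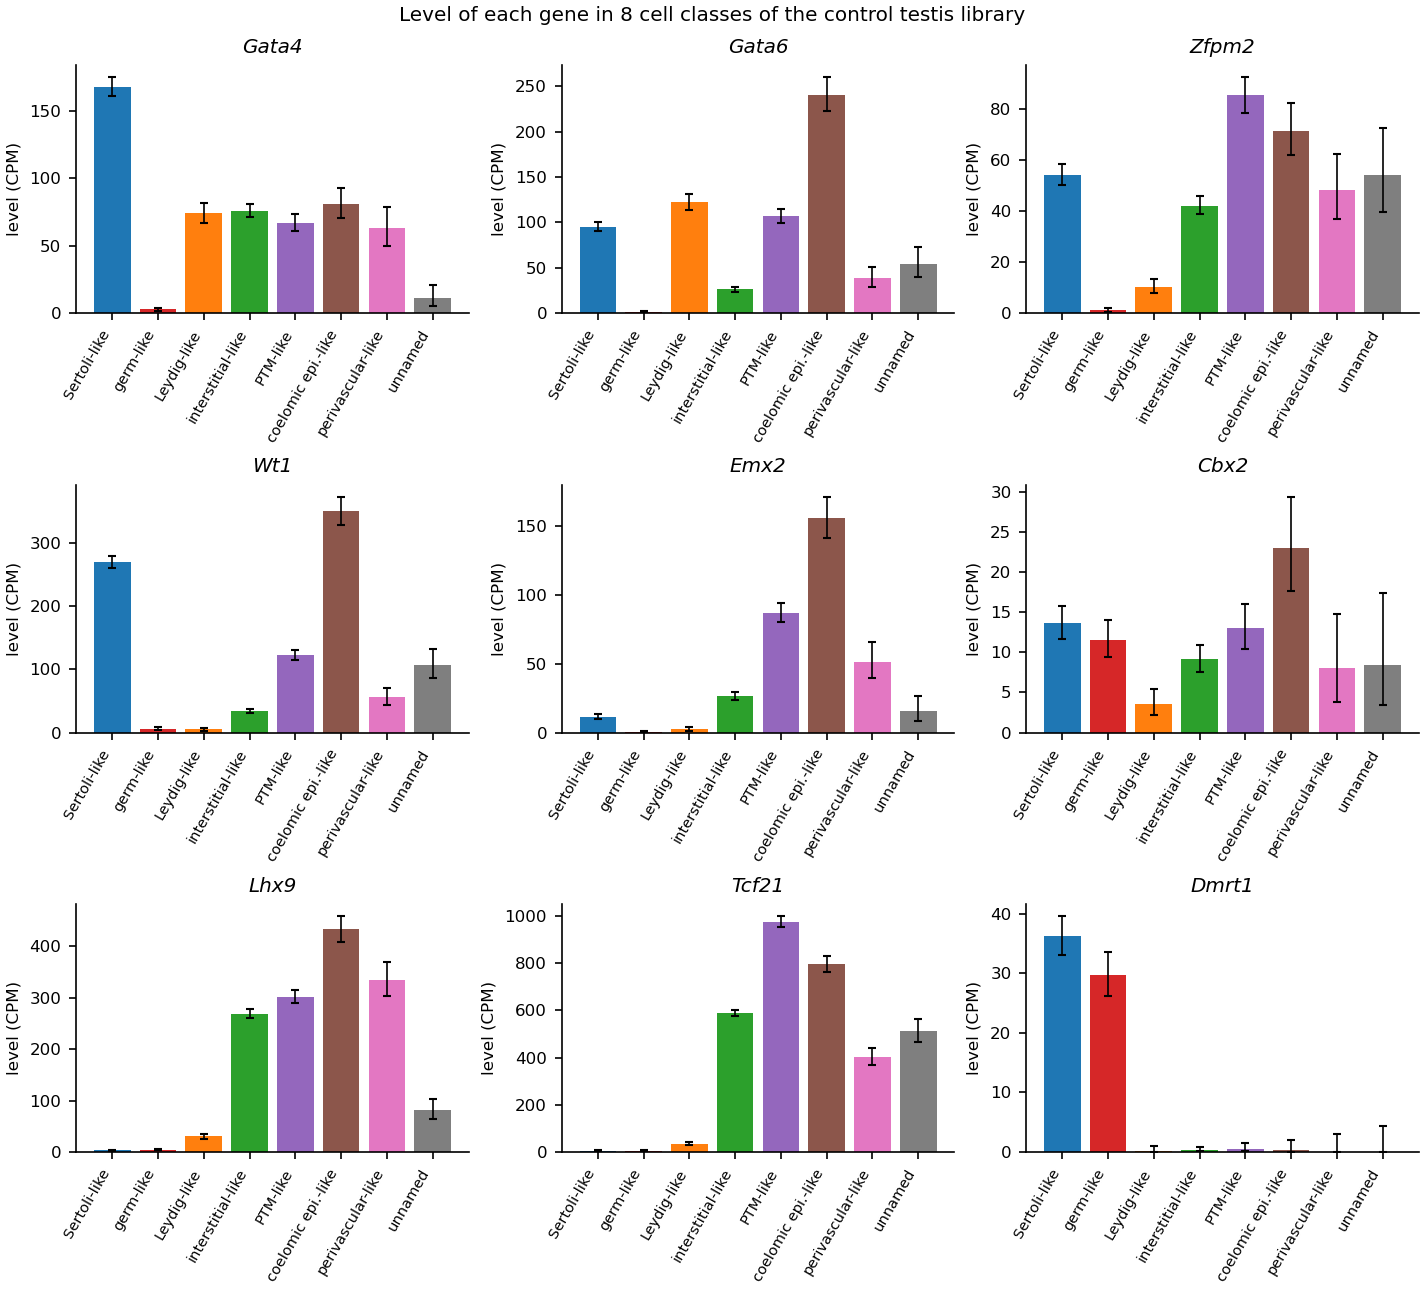
Level of each gene in CPM (linear axis from 0, a scale of its own for each gene) in the 8 classes of at least 50 cells; bars are summed UMIs and error bars exact 95% Poisson intervals of counting error. Gata4 peaks in SC-like cells, Gata6, Wt1, Emx2, Cbx2 and Lhx9 in coelomic epithelium-like cells, Zfpm2 and Tcf21 in PTM-like cells, and Dmrt1 exceeds 0.58 CPM in SC-like and GC-like cells alone.

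The comparison of cords with interstitium asked which of the genes differed between SC-like and interstitial-like cells. It does not set SC-like cells apart from other classes. Gata6 and Wt1 were higher still in coelomic epithelium-like cells, at 241 and 350 CPM. In SC-like cells 4 of the 9 genes were higher than in interstitial-like cells, against 11.1% of the 11662 genes compared, and 2 were lower, against 10.2%. The median log2 ratio was 0.40 for the 9 genes and 0.02 for all genes. Those higher were Dmrt1, with a ratio of 97.3 (41.4 to 301), Wt1, with 7.89 (7.15 to 8.71), Gata6, with 3.66 (3.25 to 4.13), and Gata4, with 2.22 (2.06 to 2.39). Those lower were Tcf21, with an interstitial to SC ratio of 90.2 (73.0 to 113), and Lhx9, with 80.5 (59.8 to 111). These ratios depended on doublet removal, without which the SC-like levels were 30.4 CPM for Tcf21 and 11.2 CPM for Lhx9, and both genes were still called lower. Doublet removal did not set the 9 genes aside, and the effect of this on the ratios was not tested. Emx2, with an SC to interstitial ratio of 0.43 (0.35 to 0.52), was called lower in 5 of the 12 alternative settings.

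In LC-like cells 5 of 8 genes compared were lower than in interstitial-like cells, against 10.1% of 10999 genes, and 1 was higher, against 7.21%. The median log2 ratio was -1.80 for the 8 genes and -0.16 for all genes. Dmrt1 had too few UMIs to be compared here and in the comparisons that follow. Interstitial to LC ratios were 16.4 (14.3 to 19.0) for Tcf21, 10.8 (6.38 to 20.04) for Emx2, 8.79 (7.55 to 10.3) for Lhx9, 6.95 (4.74 to 10.6) for Wt1 and 4.06 (3.099 to 5.40) for Zfpm2. Gata6 was higher, with an LC to interstitial ratio of 4.69 (4.12 to 5.35), and Gata4 had a ratio of 0.98 (0.87 to 1.09). The Gata4 ratio pooled cluster 6, at 106 CPM, with cluster 8, at 48.4 CPM, against 75.7 CPM in interstitial-like cells. The Gata6 ratio likewise pooled cluster 6, at 52.7 CPM, with cluster 8, at 177 CPM, against 26.0 CPM in interstitial-like cells. Calls were made on the pooled class and not for each cluster. Nr5a1, the nuclear receptor that drives steroidogenic genes, was at 226 CPM in LC-like, 73.8 CPM in SC-like and 26.3 CPM in interstitial-like cells.

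Coelomic epithelium-like and PTM-like cells had 3 genes each that were higher than in interstitial-like cells, and in both classes these were Gata6, Wt1 and Emx2. Since both comparisons use the same interstitial-like cells, the values stand side by side. For coelomic epithelium-like cells the background was 4.47% of 10782 genes, and the ratios were 10.2 (9.15 to 11.5) for Wt1, 9.25 (8.11 to 10.6) for Gata6 and 5.83 (5.06 to 6.74) for Emx2. For PTM-like cells it was 1.97% of 11020 genes, and the ratios were 4.09 (3.60 to 4.66) for Gata6, 3.58 (3.19 to 4.02) for Wt1 and 3.26 (2.86 to 3.73) for Emx2. None of the 8 genes was lower in either class, against 4.80% and 2.60% of all genes. The median log2 ratio of the 8 genes was 0.84 in coelomic epithelium-like and 0.83 in PTM-like cells, against -0.04 and -0.03 over all genes. Directly compared, coelomic epithelium-like cells exceeded PTM-like cells by 2.86 (2.61 to 3.14) for Wt1, 2.26 (2.03 to 2.52) for Gata6 and 1.79 (1.58 to 2.03) for Emx2, and were lower for Tcf21, with a ratio of 0.82 (0.78 to 0.86). The PTM-like calls were lost under 1 alternative. With classes assigned cell by cell, without clusters, Gata6 was at 73.4 CPM in PTM-like and 35.7 CPM in interstitial-like cells, and no gene of the 8 was called. The 3 genes were called under each of the other 11 alternatives.

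**Figure D4:**
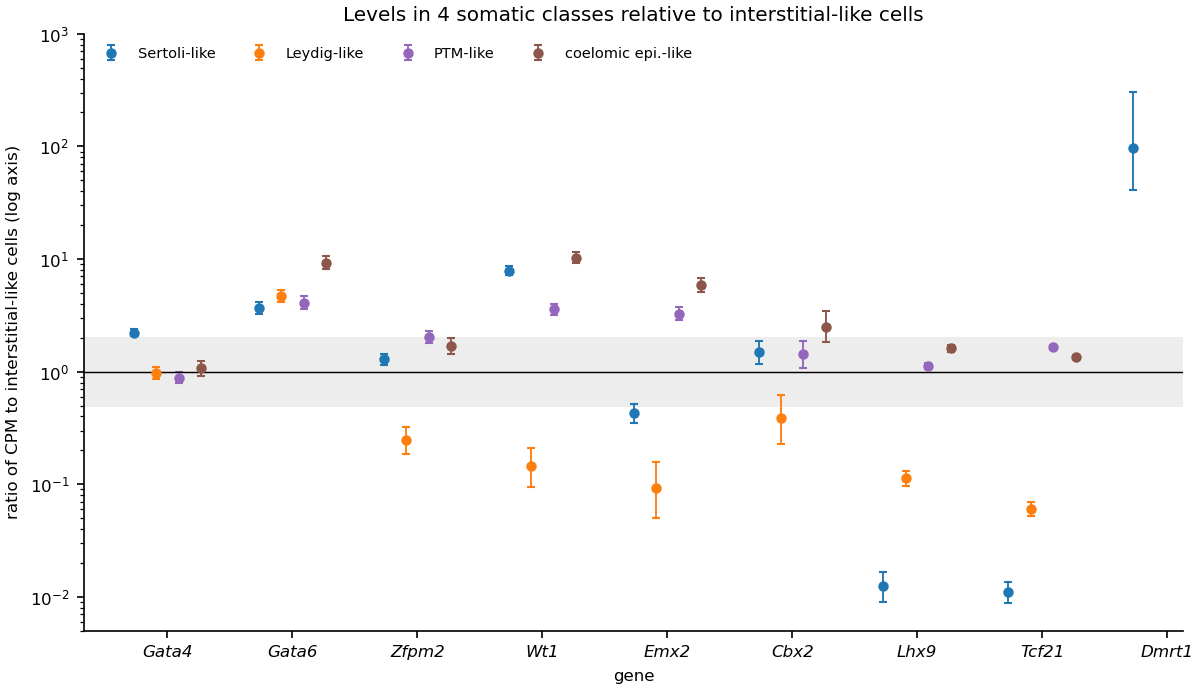
Ratio of the level in SC-, LC-, PTM- and coelomic epithelium-like cells to that in interstitial-like cells for each gene (log axis), with exact 95% intervals of counting error; the grey band spans ratios within 2-fold. Gata6 lies above the band in all 4 classes, Lhx9 and Tcf21 lie far below it in SC-like cells, and Dmrt1 is plotted for SC-like cells alone because it was too rare elsewhere.

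Rete testis-like cells, from the junction of testis and efferent ducts, had 135 CPM (88.2 to 198) of Gata4, 125 CPM (79.9 to 186) of Gata6, 229 CPM (166 to 307) of Wt1 and 104 CPM (63.5 to 160) of Emx2, with 1 UMI each of Lhx9 and Tcf21. The same 15 cells had a summed SC marker level of 1906 CPM, against 10887 CPM in SC-like cells, and 4 Dmrt1 UMIs, and the part of SC RNA in their values was not tested. Immune-like cells had from 0 to 29.3 CPM of any of the 9 genes. The unnamed cluster combined 512 CPM of Tcf21 and 107 CPM of Wt1 with a low Gata4 level, 0.14 of that in interstitial-like cells (0.07 to 0.27). It was also the class with the highest levels of Meis2 (531 CPM), Maf (421 CPM) and Meis1 (239 CPM). The summed interstitial marker level of the unnamed cluster was 2630 CPM, against 2576 CPM in interstitial-like cells.

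The number of the 9 genes with a UMI was also counted in each cell at equal depth. At 5000 UMIs coelomic epithelium-like cells had 4.19 of the 9 genes on average, PTM-like cells 3.41, interstitial-like cells 2.45, perivascular-like cells 2.31, SC-like cells 2.18, the unnamed cluster 2.05, LC-like cells 1.04 and GC-like cells 0.23. At least 4 genes were detected in 70.2% of coelomic epithelium-like, 46.3% of PTM-like and 22.55% of perivascular-like cells. The share was 15.4% in interstitial-like cells, 10.8% in the unnamed cluster, 10.6% in SC-like and 0.33% in LC-like cells. No GC-like cell had as many. The most in any cell was 8, in the coelomic epithelium-like class. The summed interstitial marker level was 1662 CPM in coelomic epithelium-like and 2252 CPM in PTM-like cells, against 2576 CPM in interstitial-like cells. Its part in the number of genes per cell was not tested. None of the 9 genes was detected in 79.7% of GC-like, 28.0% of LC-like and 11.8% of perivascular-like cells. The share was 3.63% in SC-like, 2.41% in unnamed, 2.32% in interstitial-like, 0.71% in coelomic epithelium-like and 0.20% in PTM-like cells. In coelomic epithelium-like cells 70.2% held both Lhx9 and Tcf21 RNA and, likewise, 70.2% held both Wt1 and Tcf21 RNA. In SC-like cells these shares were 0.23% and 1.29%. Taken singly, Lhx9 was detected in 78.7%, Wt1 in 81.6% and Tcf21 in 83.7% of coelomic epithelium-like cells. Whether the pairs occurred together more often than the single shares allow was not tested.

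**Figure D5:**
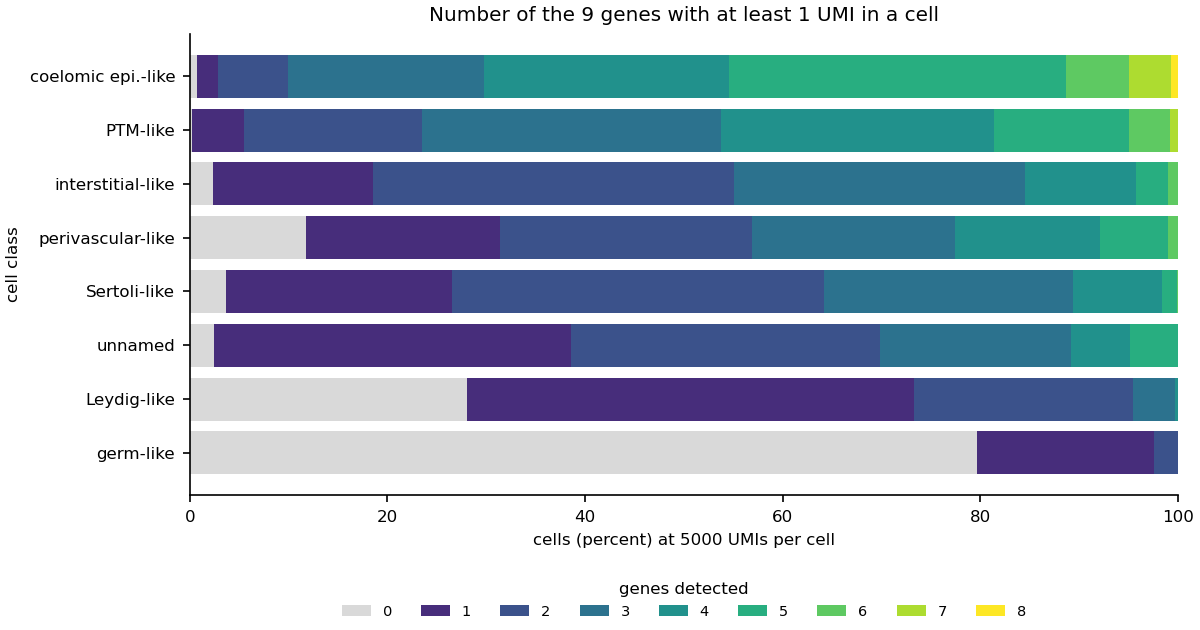
Percent of cells in each class by the number of the 9 genes with at least 1 UMI, after thinning to 5000 UMIs without the cells below that depth. Coelomic epithelium-like cells hold the most (4.19 on average) and GC-like cells the fewest (0.23 on average, 79.7% with none).

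Across 15 clusters of at least 20 cells, the log2 levels of Lhx9 and Tcf21 had a Pearson correlation of 0.96, the highest of the 36 pairs. Emx2 followed both (0.81 with Lhx9, 0.83 with Tcf21) and Zfpm2 (0.83), while Wt1 lay closest to Zfpm2 (0.81). Dmrt1 ran against Lhx9 (-0.65) and Tcf21 (-0.60), and the correlation of Gata4 with Gata6 was 0.59. The clusters come from 1 library and share its background RNA, so that these values describe this library. Among 6251 other genes that reached 50 CPM in a cluster, those most like Lhx9 were Ptn, Gucy1a1 and Flnc (0.97, 0.97 and 0.96), and those most like Tcf21 included Igfbp5 and Gucy1a1 (0.97 and 0.97). Wt1 was most like Erbb2, Ajuba and Fbln2 (0.92, 0.91 and 0.90), Gata4 like Myg1, Sbsn and Echdc2 (0.92, 0.89 and 0.88) and Gata6 like Pcdh9, Amotl2 and Tshz1 (0.88, 0.87 and 0.84). Emx2 was most like Kcne1l, Cryab and Gabra4 (0.92, 0.92 and 0.92), Zfpm2 like Ptprd, Mylk and Etl4 (0.95, 0.95 and 0.94), Cbx2 like Nme7, Plp2 and Nipsnap1 (0.90, 0.89 and 0.88) and Dmrt1 like Mta3, Mrto4 and Cenpv (0.94, 0.93 and 0.92). The matches of Cbx2 rest on sparse counts. Its highest cluster level, 24.9 CPM (9.14 to 54.2) in cluster 11, came from 6 UMIs.

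Of 18 other genes of the early gonad on the list, 9 reached 50 CPM in some class. Sox9, the SC determinant, was at 331 CPM in SC-like and 208 CPM in rete testis-like cells. The other classes of at least 50 cells had at most 20.8 CPM of Sox9. Sox9 was among the markers from which SC-like clusters were named, so this difference was built into the classes. Gadd45g was at 200 CPM in LC-like and 71.2 CPM in SC-like cells. Six4 was highest in GC-like cells, at 40.6 CPM. Sry had no UMI in any of the 8 classes.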

How the data were processed

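Single cells were captured with 10x Chromium 3′ chemistry, and the authors counted UMIs with Cell Ranger against mm10 with a YFP sequence added. The submitters' notes name Cell Ranger versions 3.0.2 and 3.1.0, whereas the methods of the study name a later version. The deposited counts are whole UMIs per gene and cell, not normalized, 72595083 in all. Barcodes with under 200 genes (372) were removed, then 204 likely doublets found by artificial doublets at an expected rate of 4.04%, then 1024 cells beyond 3 median absolute deviations in depth, genes, mitochondrial or ribosomal share. Cells were normalized and clustered in Seurat 5.3.0 (SCTransform, cell cycle and mitochondrial share regressed out, 3000 variable genes less the 9 genes, 30 components, resolution 0.8). A cluster was named from 12 marker lists. Intervals are exact Poisson (levels), Clopper-Pearson (shares) and conditional binomial (ratios), at 95%, and cover counting error only. A count of 0 was bounded at 3 counts. On data simulated for SC-like against interstitial-like cells (11674 genes), fold calls recovered 200 of 200 4-fold changes. The changed genes were drawn from well-counted genes and given counting error only. This checks the computation, and cannot speak for sparse genes such as Cbx2 and Dmrt1 or for calls near the 2-fold limit. The 9 genes, the lists and the markers were chosen with earlier results of these data known. All 9 genes were described in every class, listed relatives were named by a level of 50 CPM, and the 3 most alike genes by correlation. Settings varied were the doublet and outlier filters, resolution, normalization, pseudocount, count minimum and fold; calls in the directions higher in LC-like, higher in PTM-like and lower in coelomic epithelium-like cells were added after seeing the data. Python 3.11.15 and R 4.3.3 were used. A few genes of the lists are not reported here.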

Additional observations from a re-analysis of the deposited data

How the results depend on the processing

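Each count of genes called was recomputed under 12 alternatives. The count lower in somatic than in GC-like cells went from 1 to 0 at resolution 1.2. Dmrt1, the gene called, sits near the 2-fold limit. Its somatic level pools SC-like cells, at 36.2 CPM, with classes at or below 0.58 CPM, so it also depends on the make-up of the pool. At a 1.5-fold limit, the count higher in coelomic epithelium-like cells went from 3 to 6 and that higher in PTM-like cells from 3 to 5. With each cell classed by itself, the latter went from 3 to 0, and the cause was not tested. All other counts stayed within 1.5 times their value. Of 54 levels, 9 left their interval without doublet removal, 9 at resolution 1.2 and 17 with each cell classed by itself, and none did with the 9 genes kept for clustering. The mean number of genes per cell at 3000 UMIs was lower in all 8 classes, as fewer UMIs allow, at 3.32 in coelomic epithelium-like and 1.47 in SC-like cells. No paired analysis was possible because 1 library was analysed. Depth limits Cbx2 and Dmrt1 most, and without replicates the spread between animals is unknown.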
